A study of Mus musculus with 16 samples.

Results

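The 10 MHC class II genes described here were chosen by name as genes of class II antigen presentation, and all 10 were found among the 54752 gene identifiers counted in iWAT, or inguinal white adipose tissue, a fat depot under the skin of the groin. They are the classical chains H2-Aa, H2-Ab1 and H2-Eb1, the invariant chain Cd74, the transactivator Ciita, the peptide editor H2-DMa and H2-DMb1, the modulator H2-Oa and H2-Ob, and the E beta chain paralog H2-Eb2. RNA was sequenced from 16 C57BL/6 mice labelled as females, each 90 days old, with 4 mice in each of 4 genotypes. WT mice had no mutant allele, Lepob/+ mice had 1 ob allele of the leptin gene, SOD1G93A mice carried the transgene of mutant human SOD1 used as a model of amyotrophic lateral sclerosis, and SOD1G93A-Lepob/+ mice carried both. The transgene is a high-copy line, the ob allele is present in every tissue, and neither was checked from the counts here.

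MHC class II molecules present peptides taken up by a cell to CD4 T cells. An alpha and a beta chain assemble on the invariant chain, H2-DM exchanges its remnant for antigenic peptide, and H2-O, which is largely a product of B cells, binds H2-DM and restrains it. Ciita is recruited to a conserved promoter module of class II genes by the factors RFX, CREB and NF-Y, and B cells, dendritic cells and macrophages carry most of the class II RNA of a tissue. The inguinal fat pad encloses a lymph node, so a dissected pad can hold lymphocytes beside fat.

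Libraries held 36.8 to 61.9 mega counts (M) each. A lymph node score, the mean log2 CPM (counts scaled to the size of the library) of Glycam1, Chst4, Fut7, Madcam1, Cxcl13 and Ccl19, which mark lymph node stroma and high endothelial venules, fell into 2 clusters: it was 3.71 to 4.58 in 6 libraries and -2.78 to -1.11 in the other 10. The 6 high-score libraries were WT replicates 1 and 2, Lepob/+ replicate 3 and SOD1G93A replicates 1, 2 and 4, and no SOD1G93A-Lepob/+ library was among them. Glycam1 was 203 to 613 CPM in these and at most 0.0603 CPM in the others. The fat marker Adipoq was present in every library, at 1208 to 3261 CPM. Lepob/+ replicate 4 carried 157900 CPM of 8 skeletal muscle genes against 7.39 to 3910 CPM elsewhere, and the library labelled SOD1G93A-Lepob/+ replicate 3 went against its label as a female mouse, with 0 Xist counts and 1756 counts of 4 Y-linked genes.

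Of the 10 genes, 8 lie within 1 stretch of the major histocompatibility complex on chromosome 17 (GRCm38), where genes with very different levels in iWAT are neighbours. On the forward strand H2-Oa (ENSMUSG00000024334) spans chr17:34092340-34095234, H2-DMa (ENSMUSG00000037649) chr17:34119541-34139101 and H2-DMb1 (ENSMUSG00000079547) chr17:34153072-34160230. H2-Ob (ENSMUSG00000041538) follows at chr17:34238903-34254414 and H2-Ab1 (ENSMUSG00000073421) at chr17:34257689-34269419. H2-Aa (ENSMUSG00000036594) lies on the reverse strand at chr17:34282744-34287823. H2-Eb1 (ENSMUSG00000060586) at chr17:34305867-34316674 is followed by H2-Eb2 (ENSMUSG00000067341) at chr17:34325665-34341412. Ciita (ENSMUSG00000022504) lies at chr16:10480059-10528418, and Cd74 (ENSMUSG00000024610) lies on another chromosome.

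The promoters show what the modulator and classical genes share, and are printed because genes with this module in common differed in how they followed the lymph node score. RefSeq promoters of build GRCm38.p6, from 250 bases before to 50 bases after a start, were held for 7 of the 10 genes. Each was searched on both strands for GCAAC, found in the X box that RFX binds, followed after 25 to 40 bases (start to start) by ATTGG, the inverted CCAAT of the Y box that NF-Y binds. The pair was present in 5 of these 7 genes, against 0.892% of 27025 genes with a promoter, or 0.794% of 32851 promoters. By itself GCAAC was in 35.2% of promoters and ATTGG in 37.4%. In the lines below, 5′ to 3′ on the strand of the gene, capitals mark these motifs.
H2-Aa: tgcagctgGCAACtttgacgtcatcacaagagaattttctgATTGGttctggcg
H2-Eb1: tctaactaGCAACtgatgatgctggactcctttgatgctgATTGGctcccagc
H2-Oa: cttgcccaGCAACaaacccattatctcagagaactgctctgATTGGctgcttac
H2-Ob: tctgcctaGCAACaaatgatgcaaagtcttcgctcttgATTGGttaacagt
H2-Eb2: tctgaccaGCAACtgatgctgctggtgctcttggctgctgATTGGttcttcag
H2-DMb1: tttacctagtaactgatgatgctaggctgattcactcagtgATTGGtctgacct

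These stretches lie at chr17:34287859-34287912 (reverse strand) for H2-Aa and, on the forward strand, at chr17:34305768-34305820 for H2-Eb1, chr17:34092295-34092348 for H2-Oa, chr17:34238810-34238860 for H2-Ob, chr17:34325535-34325587 for H2-Eb2 and chr17:34153089-34153142 for H2-DMb1. The motifs began 30 bases apart in H2-Ob, 32 in H2-Eb1 and H2-Eb2, and 33 in H2-Aa and H2-Oa. ATTGG began 43 to 61 bases before the start in H2-Aa, H2-Eb1, H2-Oa, H2-Ob and H2-DMb1, and 100 bases before it in H2-Eb2. H2-DMb1 held ATTGG with no GCAAC at the searched distance before it, and its line holds gtaac, which differs by 1 base, where that of H2-Aa holds GCAAC. Whether RFX binds there was not tested. Neither of the 2 H2-DMa promoters held the pair. The presence of these letters did not separate the modulator genes and H2-Eb2 from H2-Aa and H2-Eb1. No promoter of the lists of 15 other class II pathway genes, 20 class II regulators or 13 class I pathway genes held the pair, with 7, 17 and 11 of them matched.

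Per length, Cd74 was the most abundant member. Its median level was 1825 TPM (a level per length of transcript) over the 16 libraries, and the classical beta chains H2-Eb1 and H2-Ab1 followed at 773.5 and 626 TPM and H2-Aa at 496 TPM. The peptide editor was lower, at 90.1 TPM for H2-DMb1 and 53.2 TPM for H2-DMa. Ciita stood at 6.55 TPM, H2-Oa at 2.14 TPM, H2-Ob at 1.72 TPM and H2-Eb2 at 0.238 TPM. This order did not hold in the high-score libraries, with medians of 60.8 TPM for H2-Oa, 52.0 for H2-Ob, 20.15 for Ciita and 12.9 for H2-Eb2. The ranges of H2-Eb1, H2-Ab1 and H2-Aa overlapped one another widely, as did those of H2-DMb1 and H2-DMa and those of H2-Oa and H2-Ob. In bulk tissue such a level does not separate the number of cells of a type from the RNA each holds.

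H2-Aa, the A alpha chain, was high in every library. In WT replicates 1 to 4 its level was 742, 892, 513 and 1135 CPM, in Lepob/+ 609, 822, 976 and 337 CPM, in SOD1G93A 795, 1290, 550 and 1027 CPM, and in SOD1G93A-Lepob/+ 531, 592, 631 and 552 CPM. The highest library, SOD1G93A replicate 2, had a high lymph node score, but the next, WT replicate 4, did not. The 6 high-score libraries (742 to 1290 CPM) overlapped the 10 low-score libraries (337 to 1135 CPM), and their median was 1.63-fold higher. The lowest value came from Lepob/+ replicate 4, the library with muscle transcripts. H2-Ab1 ranged from 301 to 1071 CPM and H2-Eb1 from 300.4 to 1020 CPM, with the same libraries at both ends.

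The classical genes kept close ratios to one another. Counts of H2-Aa were 106% to 126% of those of H2-Ab1 in the low-score libraries and 118% to 132% in the high-score libraries. H2-Eb1 was 87.5% to 99.8% of H2-Ab1 in the former and 94.0% to 97.5% in the latter. C57BL/6 mice do not make an E alpha chain, the partner of H2-Eb1, and its pseudogene H2-Ea-ps had 0 counts in all 16 libraries.

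Cd74, which encodes the invariant chain, varied with the chains it binds but less tightly than they did with one another. Pearson's r of its log2 level with the 3 classical genes was 0.708 to 0.745 in the 10 low-score and 0.729 to 0.768 in the 6 high-score libraries, and among the classical genes it was 0.980 or more. Its level was 1603, 1141, 956 and 1445 CPM in WT replicates 1 to 4, 787, 1665, 1427 and 725 CPM in Lepob/+, 1006, 2970, 1082 and 1385 CPM in SOD1G93A, and 660, 1107, 1405 and 672 CPM in SOD1G93A-Lepob/+. All genotypes overlapped, and SOD1G93A replicate 2 stood highest. Cd74 counts were 145% to 277% of H2-Ab1 counts, a wider range than that of H2-Aa to H2-Ab1.

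The peptide editor followed the classical genes. H2-DMa was 34.4 to 128 CPM in the low-score libraries and 75.2 to 125 CPM in the high-score libraries, and H2-DMb1 was 29.7 to 98.0 and 57.5 to 113 CPM. Both were highest among low-score libraries in WT replicate 4 and lowest in Lepob/+ replicate 4. The 2 chains kept a ratio of 97.2% to 131% (H2-DMa to H2-DMb1) over all 16 libraries. In H2-DMb1, 11.3% of 100-base windows of its transcripts also occur in transcripts of its neighbour H2-DMb2, while the other 9 members shared no such window with another gene.

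H2-Ob, the beta chain of the modulator, split the libraries. Its level was 78.3, 65.9, 3.41 and 5.89 CPM in WT replicates 1 to 4, 3.54, 2.35, 140.3 and 1.03 CPM in Lepob/+, 96.7, 173, 2.43 and 113 CPM in SOD1G93A, and 3.43, 3.02, 3.40 and 3.06 CPM in SOD1G93A-Lepob/+. Every high-score library (65.9 CPM or more) lay above every low-score library (5.89 CPM or less), and the medians of 105 and 3.23 CPM differed 32.5-fold. The SOD1G93A-Lepob/+ libraries spanned a range of levels that the low-score libraries of the other 3 genotypes enclosed.

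H2-Oa, its alpha chain, showed the same split. Its level was 28.9, 20.1, 0.645 and 1.40 CPM in WT replicates 1 to 4, 0.744, 0.586, 48.5 and 0.665 CPM in Lepob/+, 28.3, 56.5, 0.742 and 33.5 CPM in SOD1G93A, and 1.13, 0.799, 0.635 and 1.29 CPM in SOD1G93A-Lepob/+. The high-score median was 31.2 CPM against 0.743 CPM, a 42.0-fold difference with no overlap. The 10 low values rest on 20 to 53 counts a library, and 321 exonic bases of H2-Oa overlap the antisense gene BC051537. Such an overlap also covers 360 exonic bases of H2-DMa (Brd2) and 329 of Ciita (Dexi).

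H2-Eb2 was near 0 outside the high-score libraries. It was 11.4, 8.28, 0.284 and 0.423 CPM in WT replicates 1 to 4, 0.221, 0, 22.4 and 0.133 CPM in Lepob/+, 14.3, 24.8, 0.138 and 18.6 CPM in SOD1G93A, and 0.0885, 0.275, 0 and 0.365 CPM in SOD1G93A-Lepob/+. The 10 low-score libraries held at most 16 counts each, and the 2 at 0 counts allow up to 0.0733 CPM (Lepob/+ replicate 2) and 0.068 CPM (the library labelled SOD1G93A-Lepob/+ replicate 3), a limit of 3 counts that covers counting error only. Its medians differed 91.6-fold, a value that rests on these few counts. Its next neighbour on the chromosome, H2-Eb1, differed 1.61-fold between the same medians.

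Ciita lay between these patterns. Its level was 51.7, 51.4, 16.2 and 41.5 CPM in WT replicates 1 to 4, 19.2, 24.7, 105 and 13.7 CPM in Lepob/+, 66.3, 130, 20.4 and 77.8 CPM in SOD1G93A, and 17.0, 19.3, 22.6 and 14.1 CPM in SOD1G93A-Lepob/+. High-score libraries (51.4 to 130 CPM) did not overlap low-score libraries (13.7 to 41.5 CPM), and the medians differed 3.75-fold. WT replicate 4 was again the highest low-score library. In all, 4 of the 10 members (Ciita, H2-Oa, H2-Ob and H2-Eb2) lay higher in every high-score library, as did 11.2% of all 19736 genes tested.

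**Figure D1:**
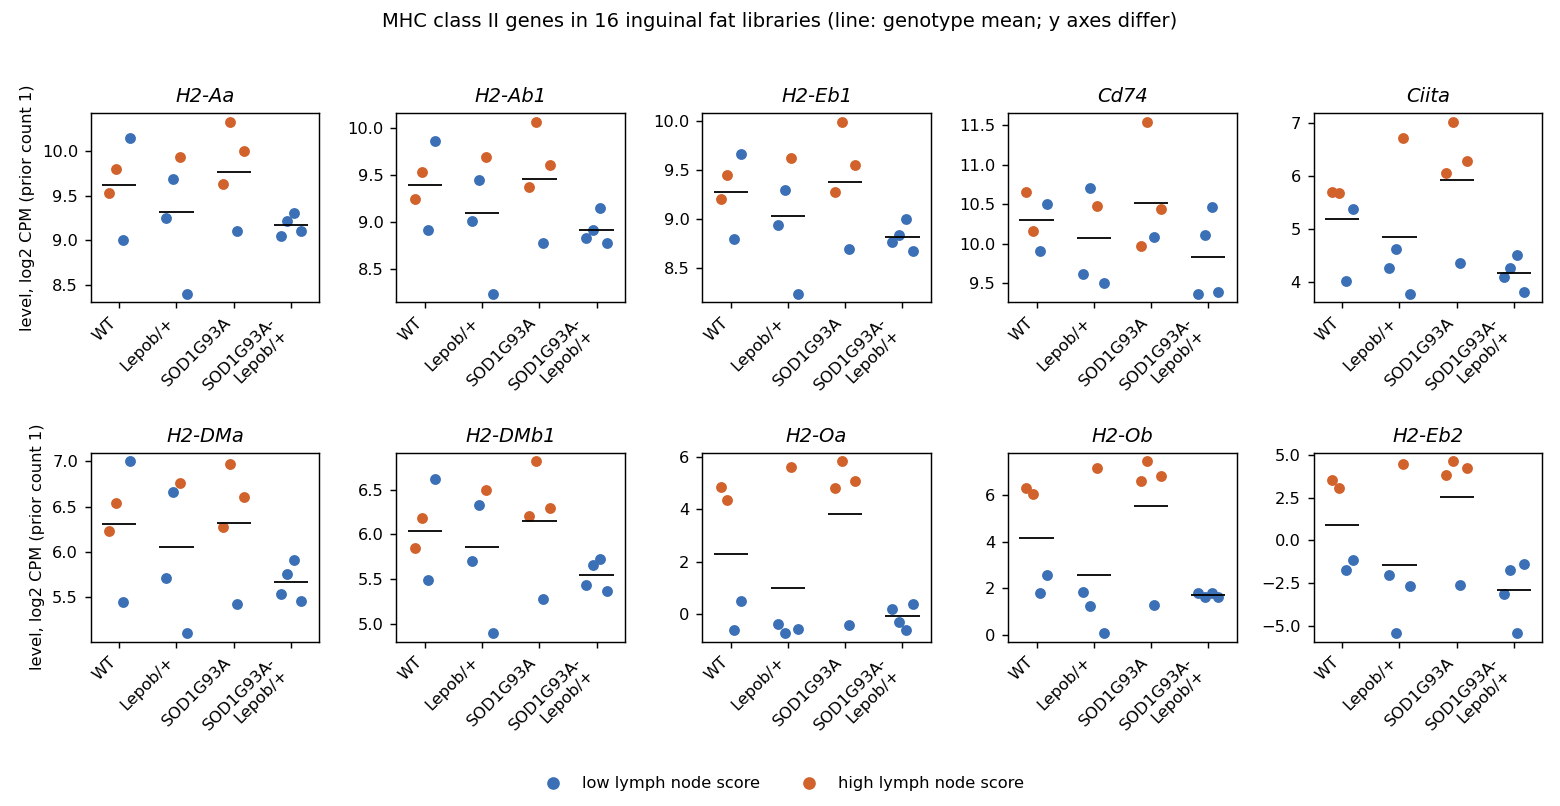
Level of each MHC class II gene (log2 CPM with a prior count of 1; y axes differ between panels) in the 16 libraries by genotype, with orange points for the 6 libraries with a high lymph node score, blue points for the 10 with a low score and a line at the mean of each genotype. Orange and blue points overlap for H2-Aa, H2-Ab1, H2-Eb1, Cd74, H2-DMa and H2-DMb1 and are apart for Ciita, H2-Oa, H2-Ob and H2-Eb2.

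To ask how each member followed lymph node content, the score was fitted beside genotype in 1 edgeR quasi-likelihood model of the 16 libraries. A slope is the log2 change of a gene per unit of the score, which is 1 doubling of the lymph node markers. H2-Oa rose with a slope of 0.95 ± 0.05 (SE; adjusted p = 8.81e-08 by Benjamini-Hochberg over all genes) and H2-Ob with 0.90 ± 0.07 (adjusted p = 7.97e-07). The slope of H2-Eb2 was 1.09 ± 0.11, given as a description with no test, since this gene had few counts in the low-score libraries. Ciita rose less steeply, at 0.31 ± 0.06 (adjusted p = 0.00103). The slopes of H2-Aa (0.09 ± 0.05), H2-Ab1 (0.09 ± 0.04) and H2-Eb1 (0.10 ± 0.04) did not pass the test, with adjusted p of 0.138, 0.156 and 0.0844. Nor did those of Cd74 (0.08 ± 0.06), H2-DMa (0.11 ± 0.06) and H2-DMb1 (0.10 ± 0.05), whose adjusted p ran from 0.163 to 0.335. So 3 of the 9 members other than H2-Eb2 rose and none fell, while 18.1% of all genes rose and 32.6% changed either way. At an unadjusted p under 0.05, 4 of these 9 were higher (the same 3 and H2-Eb1), against 22.3% of all genes, and none lower, against 20.9%. DESeq2 also called H2-Eb1 (adjusted p = 0.0453), with 39.6% of all genes called, and a fit without genotype called 9 of the 10 members, with 42.7%. H2-Eb2 was among these 9, as a description. The median slope was 0.10 over the members and -0.01 over all genes. Without WT replicate 4, 9 of 10 members passed (30.6% of all genes), all but Cd74 and with H2-Eb2 again as a description. Within the 10 low-score libraries none did (0% of all genes, with 0 called and 1531 at an unadjusted p under 0.05).

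**Figure D2:**
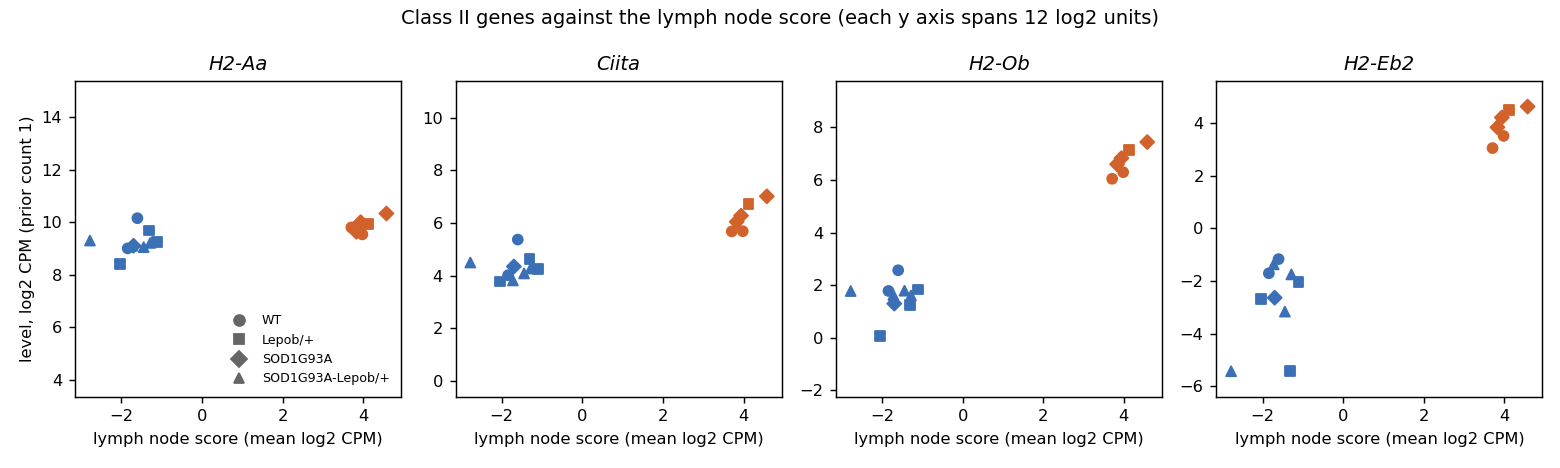
Level (log2 CPM with a prior count of 1) of H2-Aa, Ciita, H2-Ob and H2-Eb2 against the lymph node score (mean log2 CPM of 6 marker genes) in 16 libraries, with a marker shape for each genotype, orange for high and blue for low scores, and y axes of equal span. The libraries form 2 clusters, whose levels overlap for H2-Aa and are far apart for H2-Ob and H2-Eb2.

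Ratios within a library, which no scaling of libraries can alter, gave the difference between members itself. H2-Ob counts were 2.92% to 7.92% of H2-DMb1 counts in low-score libraries and 90.8% to 156% in high-score libraries. The log2 ratio rose by 0.79 ± 0.05 (SE, n = 16) per unit of the score beside genotype, with a 95% interval of 0.67 to 0.90. For the alpha chains, H2-Oa was 0.579% to 2.94% of H2-DMa and 21.6% to 45.3%, with a slope of 0.81 (95% interval 0.66 to 0.97). H2-Eb2 was at most 0.0898% of H2-Eb1 and then 1.18% to 2.84%, a description that rests on at most 16 counts a library in the former. Ciita was 3.23% to 4.65% of H2-Ab1 and 6.98% to 12.8%, with a slope of 0.22 (0.16 to 0.28). Leaving out each library in turn gave slopes of 0.73 to 0.81 for H2-Ob, 0.77 to 0.85 for H2-Oa and 0.18 to 0.23 for Ciita.

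For pairs of like genes the interval included 0. The slope of the log2 ratio was 0.009 (95% interval -0.008 to 0.027) for H2-Aa to H2-Ab1, 0.008 (-0.003 to 0.020) for H2-Eb1 to H2-Ab1 and 0.019 (-0.014 to 0.052) for H2-DMa to H2-DMb1. Between the chains of the modulator, H2-Oa to H2-Ob, it was 0.05 (-0.07 to 0.16). Without Lepob/+ replicate 4, the library with muscle transcripts, the slopes of H2-Eb1 to H2-Ab1 and of H2-Oa to H2-Ob were 0.011 and 0.082, and their intervals no longer included 0. The intervals come from a linear fit over 16 libraries with 0.5 added to each count and are not adjusted over the 19 ratios computed.

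**Figure D3:**
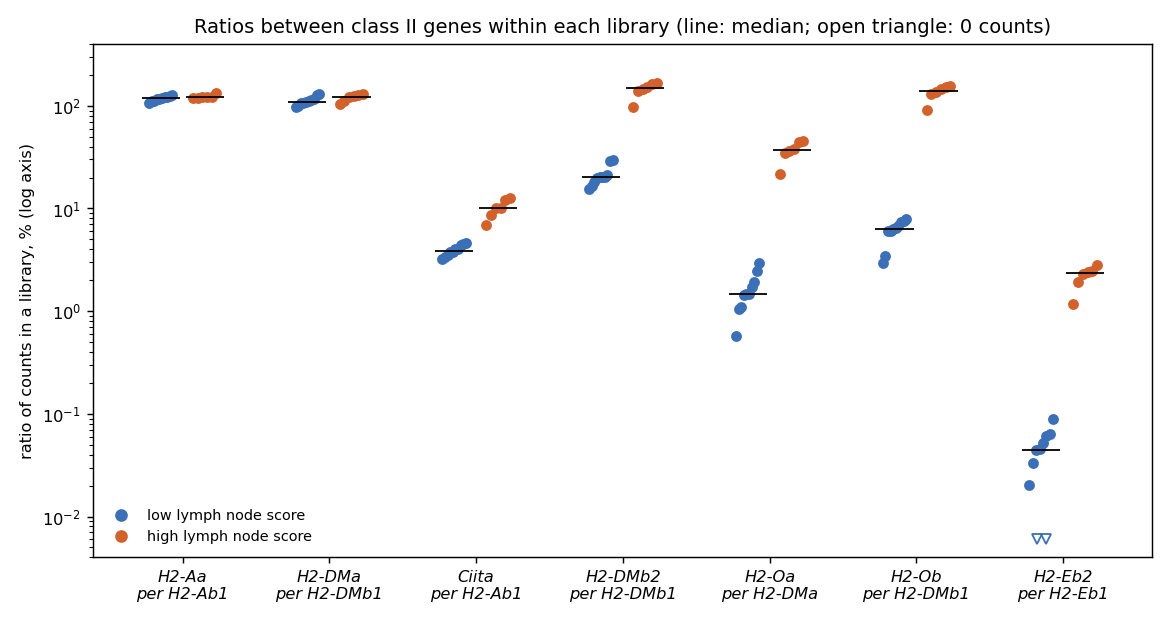
Ratio of the counts of class II genes within each library, in percent on a log axis, for the 10 low-score (blue) and 6 high-score (orange) libraries, with a line at the median and open triangles for 2 libraries with 0 H2-Eb2 counts. H2-Aa to H2-Ab1 and H2-DMa to H2-DMb1 stay near 100% in both clusters, whereas H2-Oa, H2-Ob and H2-Eb2 stand higher against their counterparts in every high-score library.

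H2-DMb2, a second beta chain gene beside H2-DMb1 and one of the 15 class II pathway genes listed, did not follow its neighbour. It was 15.3% to 29.9% of H2-DMb1 counts in low-score libraries and 98.0% to 165% in high-score libraries, with a slope of the log2 ratio of 0.49 (0.41 to 0.56). Its own slope was 0.56 ± 0.08 (adjusted p = 0.000189). Of the list, 14 genes could be tested, and 5 rose and 4 fell with the score, against 18.1% and 14.6% of all genes. Cd4, the T cell coreceptor that binds class II and also a T cell marker here, rose by 0.87 ± 0.03 (adjusted p = 5.93e-09), and Lag3, another receptor of class II, by 0.18 ± 0.03 (adjusted p = 0.000756). The costimulator Cd40 and the lysosomal thiol reductase Ifi30 rose too (0.27 and 0.17). The proteases Ctsl, Ctsb and Ctsd and the ubiquitin ligase March8 fell by 0.15, 0.11, 0.08 and 0.08 per unit. Cd40, Ifi30, Ctsl, Ctsb, Ctsd and March8 were named here after their values were seen.

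Among 20 regulators of class II genes, 4 rose and 1 fell with the score, against 18.1% and 14.6% of all genes, so the share that rose was near the background. Pax5, the B cell factor that is also in the B cell list, rose by 1.20 ± 0.09 (adjusted p = 6.58e-07), and Irf8 by 0.36 ± 0.03 (adjusted p = 2.64e-06). Jak1 (0.08) and Irf1 (0.12), named after their values were seen, rose by less, and Rfxap, a subunit of RFX, fell by 0.09 ± 0.02 per unit (adjusted p = 0.00222). Of 13 class I pathway genes 5 rose, against 18.1% of all genes, and none fell. They were Nlrc5, the class I transactivator (0.20 ± 0.03, adjusted p = 5.58e-05), the immunoproteasome subunits Psmb9 (0.16 ± 0.03) and Psmb8 (0.15 ± 0.02), and the peptide transporter subunits Tap1 (0.18) and Tap2 (0.09), the last pair named after their values were seen.

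Marker genes of several cell types moved with the score. The 12 B cell markers summed to 11.9 to 37.8 CPM in low-score and 667 to 2041 CPM in high-score libraries, the 10 T cell markers to 8.77 to 29.1 and 642 to 1266 CPM, and the 9 dendritic cell markers to 66.2 to 185 and 377 to 471 CPM. The 10 macrophage markers overlapped, at 895 to 4305 and 852 to 2488 CPM. Adipocyte markers were lower beside a high score: Adipoq had a median of 2319 CPM in low-score and 1379 CPM in high-score libraries, with ranges that overlapped through Lepob/+ replicate 4 alone. The score marks a structure that holds all these cells, so their parts in the levels of H2-O and H2-Eb2 cannot be told apart across clusters.

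Within a cluster, levels were compared with the mean log2 level of the B cell and macrophage markers in 40 relations. Among the 6 high-score libraries H2-Ob correlated with the B cell markers at r = 0.997 (exact permutation p = 0.00278, adjusted p = 0.0218) and rho = 1 (exact p = 0.00278, adjusted 0.0303), and r was 0.994 without the 2 libraries farthest from the median. H2-Eb2 (r = 0.990, rho = 1), H2-Oa (r = 0.977, rho = 0.943) and Ciita (r = 0.977, rho = 1) each had an adjusted exact permutation p of 0.0218 for r. Their rho had adjusted exact permutation p of 0.0303, 0.0686 and 0.0303, so that of H2-Oa did not pass, and r without those 2 libraries was 0.995, 0.920 and 0.991. The classical genes had r of 0.777 to 0.795 (H2-Aa, H2-Ab1, H2-Eb1), with adjusted exact permutation p of 0.127 to 0.132. Without those 2 libraries their r rose to 0.883, 0.985 and 0.976, the last 2 above that of H2-Oa, so this check did not set the classical genes apart.

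Among the 10 low-score libraries, the classical genes correlated with the B cell markers at r of 0.835 (H2-Aa), 0.838 (H2-Ab1) and 0.856 (H2-Eb1), each with an adjusted permutation p of 0.0218, and rho was 0.733, 0.758 and 0.818 (adjusted permutation p of 0.0686, 0.0686 and 0.0399). Without the 2 libraries farthest from the median, r fell to 0.386, 0.423 and 0.493, so these relations rest on those libraries. In the same cluster H2-Oa, H2-Ob and H2-Eb2 had r of 0.395, 0.743 and 0.222 (adjusted permutation p of 0.403, 0.0852 and 0.65). None of them passed, and r without those 2 libraries was -0.3, 0.239 and -0.0703. H2-Oa and H2-Eb2 rest on few counts there. H2-DMa, H2-DMb1 and Ciita had r of 0.815, 0.855 and 0.822 with the B cell markers (adjusted permutation p of 0.0223, 0.0218 and 0.0306). Their rho of 0.855, 0.83 and 0.624 had adjusted permutation p of 0.0303, 0.0394 and 0.127. Without the 2 libraries farthest from the B cell median, their r fell to 0.446, 0.559 and 0.333. For Cd74 r was 0.505 (adjusted permutation p = 0.225). With the macrophage markers, H2-DMa had the highest r of 0.731 (permutation p = 0.016, adjusted 0.0581) and H2-Aa had 0.688 (adjusted permutation p = 0.0852), and none of the 20 relations with macrophage markers passed. Without the 2 libraries farthest from the macrophage median, r of H2-Aa, H2-Ab1 and H2-Eb1 rose from 0.688, 0.603 and 0.627 to 0.812, 0.763 and 0.781. For H2-DMa and H2-DMb1 it was then 0.762 and 0.811, while for Cd74 it fell from 0.493 to 0.444. WT replicate 4, highest of the low-score libraries for all 3 classical genes, also held the most B cell marker RNA of them (37.8 CPM) and 3441 CPM of macrophage markers.

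Genes whose log2 levels over the 16 libraries were most like those of the members differed between both patterns. The mean of H2-Aa, H2-Ab1 and H2-Eb1 was followed most closely by Tmem154 (r = 0.953), Gm10521 (0.936), Itgax (0.933), which encodes the integrin CD11c of dendritic cells and macrophages, Iqgap1 (0.932) and Tgfb1 (0.931). The mean of H2-Oa, H2-Ob and H2-Eb2 was followed by Gimap3 (0.994), Cd22 (0.992), BE692007 (0.992) and Cd3e (0.991), of which Cd3e acts in T cells and Cd22 in B cells. An r over 0.9 was reached by 26 genes for the first pattern and 1075 for the second. The second values take in the distance between both clusters: within the 10 low-score libraries r of these 4 genes was 0.777 to 0.890, and the points share libraries and depth.

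The genotypes were then compared, to ask whether the mutations alter antigen presentation genes in iWAT. In SOD1G93A-Lepob/+ against SOD1G93A, the comparison that asks what the loss of 1 leptin allele does in the disease model, no member passed the test in edgeR (0% of all genes, with 0 of 19736 called and 3261 at an unadjusted p under 0.05). All 10 estimates were below 0. H2-Oa had a log2 fold change of -4.92 ± 1.72, H2-Ob of -4.89 ± 1.64 and Ciita of -2.01 ± 0.64, each with an adjusted p of 0.261. H2-Eb2 was at -6.17 ± 2.14, given as a description with no test. This gene had few counts outside the high-score libraries, and no SOD1G93A-Lepob/+ library was among those. For H2-Aa, H2-Ab1 and H2-Eb1 it was -0.67 ± 0.33, -0.60 ± 0.31 and -0.63 ± 0.30, for Cd74 -0.75 ± 0.39, and for H2-DMa and H2-DMb1 -0.75 ± 0.40 and -0.69 ± 0.35, with adjusted p of 0.310 to 0.352. At an unadjusted p under 0.05, Ciita, H2-Oa and H2-Ob were lower and no member was higher, against 12.3% and 4.19% of all genes. No member was lower in all 4 SOD1G93A-Lepob/+ than in all 4 SOD1G93A libraries, which 3.6% of genes were.

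DESeq2 called H2-Oa, H2-Ob and Ciita lower (adjusted p within 0.0176 to 0.0378 on all 16 libraries), with 3.01% of all genes called, or 8.35% when fitted on the 8 compared libraries alone. The limma voom method with quality weights called 9 members, all but Cd74, and 31.5% of all genes. H2-Eb2 was also called by DESeq2 and is among these 9, but its calls are descriptions because of its few counts in low-score libraries. In this comparison 3 of 4 SOD1G93A and 0 of 4 SOD1G93A-Lepob/+ libraries had a high score. With the score as a covariate, H2-Oa, H2-Ob, H2-Eb2 and Ciita were at 0.36 ± 0.39, 0.25 ± 0.49, -0.16 ± 0.84 and -0.35 ± 0.44, and H2-Aa at -0.20 ± 0.36. Among the low-score libraries alone, where SOD1G93A replicate 3 stands by itself, they were at 0.37 ± 0.52, 0.41 ± 0.57, 0.33 ± 1.57, -0.15 ± 0.49 and 0.07 ± 0.51. The median over the members was -0.75 for genotype alone, -0.17 with the covariate and 0.20 in the low-score libraries, against 0.00 over all genes for genotype alone.

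**Figure D4:**
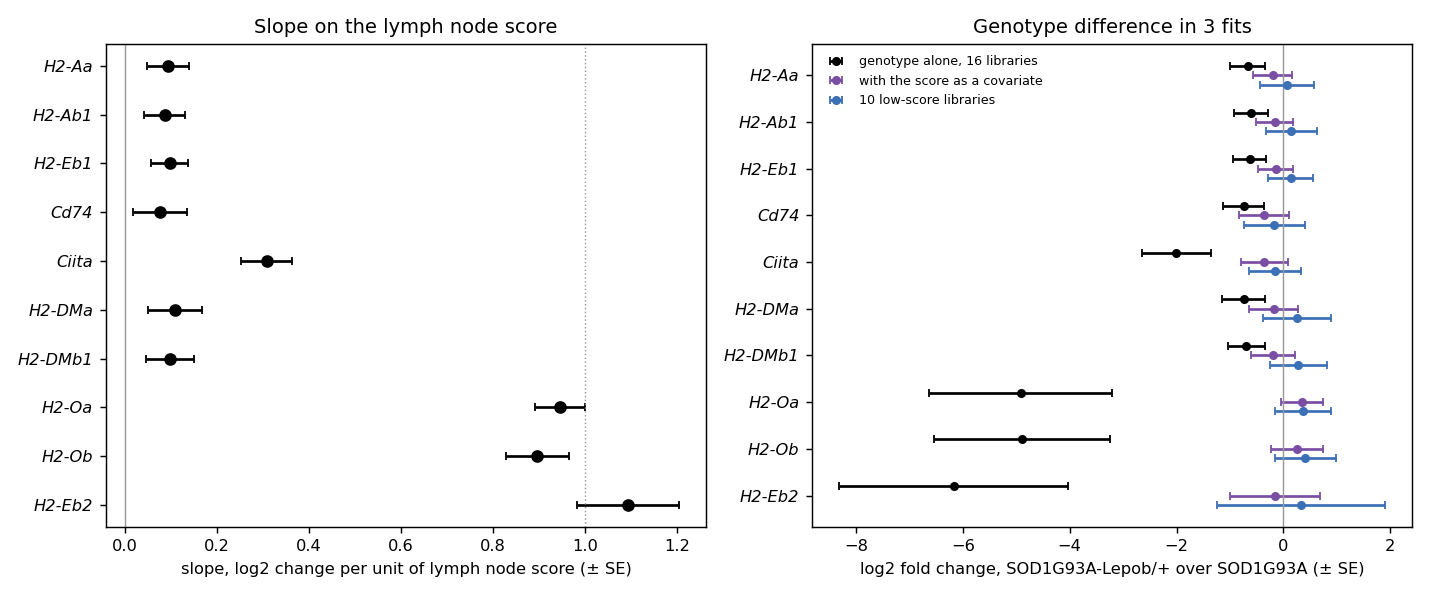
Left, slope of each member on the lymph node score (log2 change per unit, with SE) in the fit with genotype, with a dotted line at 1. Right, log2 fold change of SOD1G93A-Lepob/+ over SOD1G93A (with SE) for genotype alone in 16 libraries (black), with the score as a covariate (purple) and in the 10 low-score libraries (blue). H2-Oa, H2-Ob and H2-Eb2 have slopes near 1 and lie at -4.89 to -6.17 in black but within 1 SE of 0 in purple and blue.

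The other genes of antigen presentation were compared in the same way. None of the 14 class II pathway genes, 20 regulators or 13 class I pathway genes tested passed. H2-DMb2 (-3.45 ± 1.10), Lag3 (-1.08 ± 0.37) and Cd4 (-4.41 ± 1.55) had the smallest p among pathway genes, Pax5 (-6.66 ± 2.21), Irf8 (-1.94 ± 0.65) and Rfx5 (-0.89 ± 0.34) among regulators, and Nlrc5 (-1.18 ± 0.38), Psmb9 (-0.84 ± 0.32) and Psmb8 (-0.69 ± 0.29) in the class I pathway, all with an adjusted p of 0.261 to 0.270. Medians were -0.55, -0.22 and -0.24 for these lists, and -6.69 for B cell, -5.87 for T cell and 0.56 for macrophage markers.

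No member passed in the other comparisons (0% of all genes in each). In SOD1G93A against WT, log2 fold changes ran from 0.01 (H2-DMa) to 1.5 (H2-Eb2), and H2-Aa was at 0.16 ± 0.33, with 505 genes at an unadjusted p under 0.05 (1.64% of all genes higher and 0.917% lower) and no member among them. The median of 0.24 turned to -0.66 in the low-score libraries, to -0.08 with the score as a covariate and to -0.08 without SOD1G93A replicate 2. In Lepob/+ against WT they ran from -0.26 (H2-Aa) to 0.16 (H2-Eb2), with 862 genes (3.56% higher and 0.811% lower) and again no member. Without Lepob/+ replicate 3, the 1 high-score library of its genotype, the lowest member was at -5.18 and the median moved from -0.14 to -0.48. SOD1G93A-Lepob/+ against Lepob/+ gave -4.83 ± 2.03 for H2-Eb2 (a description with no test), -3.68 ± 1.62 for H2-Oa and -3.50 ± 1.54 for H2-Ob (both at an adjusted p of 0.602), and -0.25 to -1.16 for the other 7. H2-Oa and H2-Ob were lower at an unadjusted p under 0.05, as were 6.28% of all genes, while 1.96% were higher. Lepob/+ replicate 3 was the 1 high-score library of these 8, and without it the log2 fold changes of the 10 members ran from -0.29 to 0.52 with a median of -0.06. The interaction of both mutations was -6.33 ± 2.63 for H2-Eb2 (a description with no test), -4.90 ± 2.17 for H2-Oa, -4.83 ± 2.08 for H2-Ob and -2.03 ± 0.89 for Ciita. H2-Oa, H2-Ob and Ciita had an adjusted p of 0.564 and an unadjusted p under 0.05, which 5.82% of all genes also reached downward and 2.16% upward. For the other 6 members the interaction was -0.37 to -0.59. These comparisons share libraries, so their estimates are not independent.

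Of the lists, the 3 genes each with the smallest p in these comparisons did not pass either. In SOD1G93A against WT they were March1, Cd40 and Ctsd among pathway genes, Jak1, Rfx5 and Jak2 among regulators and Erap1, Nlrc5 and Tap1 of the class I pathway, at log2 fold changes from -0.21 (Ctsd) to 0.71 (Cd40). In Lepob/+ against WT they were Lag3, March8 and Ctsd, Nfyb, Irf1 and Ifngr2, and Erap1, Tap2 and H2-K1, from -0.64 (Irf1) to 0.35 (Ifngr2). In SOD1G93A-Lepob/+ against Lepob/+ Pax5 was at -5.26 ± 2.07, Cd4 at -2.95 ± 1.45 and H2-DMb2 at -2.32 ± 1.05, and Cd86, Rfxank, Rfx5, Psmb9, Nlrc5 and B2m lay between -0.64 (Rfx5) and 0.26 (B2m). In the interaction Pax5 was at -6.90 ± 2.68, Cd4 at -3.92 ± 1.97 and H2-DMb2 at -3.36 ± 1.45, and Cd40, Rfx5, Nfyb, Nlrc5, Psmb9 and Erap1 lay between -1.58 (Cd40) and -0.38 (Erap1). The smallest adjusted p among these was 0.564.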

How the data were processed

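Poly(A) RNA of iWAT from 16 mice was sequenced. The authors deposited raw counts per gene for each library, made by trimming with Fastp, alignment to mm10 with HISAT2 2.1.0 and counting with featureCounts 2.0.2. The strand setting and annotation release of the counting are not given in the sources used here, so reads of overlapping antisense genes cannot be told apart. The mice are labelled as separate samples, and no pair of libraries of 1 genotype agreed within sampling noise in a chi-square test of their counts.

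Counts were tested with edgeR 4.0.16 (R 4.3.3; quasi-likelihood with robust dispersion, TMM, filterByExpr with a minimum count of 10 and total of 15, prior count 1) in 1 fit of 16 libraries, with Benjamini-Hochberg adjustment over 19736 genes at 0.05. An SE is the log2 value divided by the root of its F statistic. CPM used all counts of a library, and TPM used exon lengths of GENCODE for GRCm38. DESeq2 1.42.0, limma 3.58.1 and other filters, scalings and subsets were alternatives. The fits were tested on simulated data.

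Named were all 10 members, up to 3 genes of each list per comparison by smallest p, and 5 genes most like each of 2 patterns by Pearson's r, except results that are not reported here. The members and lists were chosen with earlier results of these data known.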

Additional observations from a re-analysis of the deposited data

Results flagged for a closer look

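In 4 of the 40 groups of 4 libraries examined (10 members in 4 genotypes), 1 library stood far from the other 3 by Dixon's test, and chance flags about 1 in 20 such groups. That rate is for independent groups. These groups share libraries, and some of the genes varied together, so the 4 flags cannot be set against it. H2-Oa was 48.5 CPM in Lepob/+ replicate 3, the 1 high-score library of its genotype. H2-Oa (0.742 CPM), H2-Ob (2.43 CPM) and H2-Eb2 (0.138 CPM) were low in SOD1G93A replicate 3, the 1 low-score library of its genotype.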

How the results depend on the processing

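In SOD1G93A-Lepob/+ against SOD1G93A, 0 members were called by edgeR under every scaling, filter, covariate and subset run, and in each fit without 1 library (0 to 0). DESeq2 called 4 on all 16 libraries and 4 on the compared genotypes, and limma voom called 9; the cause was not tested. In the low-score libraries log2 fold changes turned to 0.072 (H2-Aa), 0.15 (H2-Ab1), 0.13 (H2-Eb1), 0.25 (H2-DMa), 0.28 (H2-DMb1), 0.37 (H2-Oa), 0.41 (H2-Ob) and 0.33 (H2-Eb2), and with the score as a covariate to 0.36 (H2-Oa) and 0.25 (H2-Ob). For the slope, 4 members were called, 9 without the genotype term, 0 in the low-score libraries, where Cd74 turned to -0.20, and 4 to 9 without 1 library, 9 only without WT replicate 4. The median interaction over the members was 0.67 in the low-score libraries. The other comparisons of genotypes called 0 members under each alternative run. Counts of 4 or more members called in this section include H2-Eb2 as a description, since it had few counts in the low-score libraries. Ranks by TPM moved H2-Aa from 2 to 4 and H2-Eb1 from 4 to 2.

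Same-numbered libraries did not deviate together: of 24 pairs, 5 correlated over 0.1 and 8 under -0.1. With the replicate block, 0 members were called in SOD1G93A-Lepob/+ against SOD1G93A (2692 genes at an unadjusted p under 0.05, against 3261) and 4 for the slope. Ratio slopes without the genotype term or without 1 library, chosen after seeing the data, kept their sign. H2-Eb2 and H2-Oa rest on few counts in low-score libraries, so their low levels have little precision.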
